A study of Mus musculus with 12 samples.

Results

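Runx1, Runx2 and Runx3 encode the 3 RUNX transcription factors of the mouse, and the chromatin at their loci was read from cell lines of mouse pancreatic cancer. The loci were taken as fixed windows of the mm9 build: chromosome 16, 92.5 to 92.95 Mb, for Runx1; chromosome 17, 44.55 to 45.05 Mb, for Runx2; and chromosome 4, 134.6 to 134.82 Mb, for Runx3. Every region of the 11 region lists that overlapped a window was included, which gave 341 of 313566 regions in all: 121 at Runx1, 186 at Runx2 and 34 at Runx3. The windows hold flanking sequence as well as the genes. By name, from the RefSeq table of GRCm38, Clic6 and Setd4 are the coding genes next to Runx1, Syf2 and Clic4 those next to Runx3, and Supt3 overlaps Runx2. No gene annotation of mm9 was used, so starts, exons and introns were not placed on these regions, and "promoter-type" below describes a mark and not an annotated start.

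RUNX proteins bind DNA through the Runt domain as partners of CBFβ, and they activate or repress genes according to the cofactors they recruit. RUNX1 is needed for the formation of blood stem cells, RUNX2 for bone formation, and RUNX3 for T cells and sensory neurons. RUNX3 has also been linked to metastatic behaviour in models of pancreatic cancer. Each Runx gene is known to be transcribed from a distal and a proximal promoter. H3K4me3 is the histone mark of active promoters, H3K4me1 of enhancers, H3K27ac of active elements of either kind, and H3K27me3 of genes silenced by Polycomb. KDM6A removes H3K27 methylation and works in complexes with MLL4 (KMT2D), which methylates H3K4 at enhancers.

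The lines carried the genotype labels KDM6A-KO or KDM6A-WT, with the sex, female or male, in the library titles, and all were grown in F12/DMEM with EGF and left untreated. Every label, WT included, gives the line's origin as a tumour null for Kdm6a ("K6A null"), so KO and WT below mean only the genotype label; the ages, the driver alleles and the number of clones behind each line are not given in the sources used here. H3K4me1 was listed for KO and WT of both sexes, KDM6A and MLL4 for female KO and WT, and H3K4me3, H3K27ac and H3K27me3 for female WT alone. The study had 12 libraries, 1 per group. A library of female WT titled as input had no list used here. No difference below has a replicate check, no test between lines was possible, and no p-value is given. Reads in the listed regions numbered 108165 (MLL4, WT) to 17526099 (H3K4me3) per library, and the depth of the libraries is unknown. Brackets give exact Clopper-Pearson 95% intervals over regions, which cover counting error only. The Kdm6a gene could not be placed without an mm9 annotation, so the genotype labels were not checked at the gene. The KDM6A list of the line labelled KO was the longer one, with 5961 regions against 2847. Markers of ductal and other cell types, and other genes of the pathway such as Cbfb, Tle1 and Smad3, could not be placed for the same reason.

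RefSeq promoter entries (GRCm38.p6) matched all 3 genes, with 5 starts: 2 for Runx1, 1 for Runx2 and 2 for Runx3. They are shown because the 3 loci differed in promoter marks while their upstream starts share a run of letters. The coordinates belong to another build than the region lists and were not placed on them. A run of 18 bases, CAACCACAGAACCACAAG, is the longest that the most upstream start of each gene has in common. It holds 2 copies of the RUNX motif AACCACA, the letters RUNX proteins are known to bind. It is found in 4 of the 32851 mouse promoter entries of RefSeq, those of Runx1, Runx2, Runx3 and Gm16225, a non-coding neighbour of Runx3. It begins at base 27 after the start in Runx1, at base 22 after it in Runx2, and 136 bases before it in Runx3. The 30 bases around it are given 5′ to 3′ along the gene, with the shared run in capitals.
Runx1, GRCm38 chr16:92826025-92826054, minus strand: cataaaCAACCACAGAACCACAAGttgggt
Runx2, GRCm38 chr17:44814583-44814612, minus strand: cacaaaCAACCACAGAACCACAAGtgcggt
Runx3, GRCm38 chr4:135120503-135120532, plus strand: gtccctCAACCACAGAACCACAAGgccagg

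The 250 bases before each start differed in base composition. Upstream starts held 2 CpG in Runx1, 0 in Runx2 and 8 in Runx3, while the downstream starts held 27 in Runx1 and 38 in Runx3; the median over all entries was 6. The RUNX motif, AACCACA or its reverse complement TGTGGTT, was found once in the Runx2 stretch and 2 times in the upstream one of Runx3, and in 4.40% of all entries over the same length. The AP-1 motif TGANTCA, which reads alike on both strands, was in none of the 5 and in 6.75% of all entries. The stretches follow with RUNX motifs in capitals.
Runx1, upstream start, GRCm38 chr16:92826075-92826324, minus strand: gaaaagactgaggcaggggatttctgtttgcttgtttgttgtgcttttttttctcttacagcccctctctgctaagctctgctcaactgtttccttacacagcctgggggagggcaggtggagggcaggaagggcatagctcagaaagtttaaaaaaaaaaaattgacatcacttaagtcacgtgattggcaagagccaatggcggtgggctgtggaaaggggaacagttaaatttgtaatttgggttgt
Runx1, downstream start, GRCm38 chr16:92697330-92697579, minus strand: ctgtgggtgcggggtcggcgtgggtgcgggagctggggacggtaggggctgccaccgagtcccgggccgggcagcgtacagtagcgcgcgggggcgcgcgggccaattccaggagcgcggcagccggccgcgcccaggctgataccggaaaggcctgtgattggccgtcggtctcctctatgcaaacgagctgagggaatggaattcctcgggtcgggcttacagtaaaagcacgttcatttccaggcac
Runx2, start listed, GRCm38 chr17:44814628-44814877, minus strand: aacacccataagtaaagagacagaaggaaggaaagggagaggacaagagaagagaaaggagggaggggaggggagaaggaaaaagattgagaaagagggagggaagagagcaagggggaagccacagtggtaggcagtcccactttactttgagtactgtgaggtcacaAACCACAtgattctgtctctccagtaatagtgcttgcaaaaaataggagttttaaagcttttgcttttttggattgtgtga
Runx3, upstream start, GRCm38 chr4:135120395-135120644, plus strand: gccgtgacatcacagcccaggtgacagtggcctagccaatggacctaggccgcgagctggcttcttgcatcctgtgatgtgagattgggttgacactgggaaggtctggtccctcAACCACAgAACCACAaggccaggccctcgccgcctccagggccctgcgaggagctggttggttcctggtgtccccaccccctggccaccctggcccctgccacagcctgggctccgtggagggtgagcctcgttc
Runx3, downstream start, GRCm38 chr4:135152295-135152544, plus strand: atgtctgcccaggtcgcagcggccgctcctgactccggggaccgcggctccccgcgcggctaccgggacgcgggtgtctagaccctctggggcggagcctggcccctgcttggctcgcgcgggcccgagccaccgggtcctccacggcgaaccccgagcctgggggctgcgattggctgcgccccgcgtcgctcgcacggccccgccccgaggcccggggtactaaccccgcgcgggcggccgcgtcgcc

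In female WT, the Runx1 and Runx2 windows held dense promoter-type H3K4me3 and the Runx3 window did not. Supt3 overlaps Runx2, and no dense region of that window was assigned to either gene. The windows held 21 H3K4me3 regions, 3 of them dense: 1 at Runx1 and 2 at Runx2. These 3 held 357 to 393 reads per kb, above the upper quartile of the list, 302.5 reads per kb. The dense Runx1 region lay at chromosome 16, 92691401 to 92699600, with 3224 reads over 8.2 kb, rank 360 of 24492 regions by reads. At Runx2 the denser marks lay at chromosome 17, 44864801 to 44876600, with 4211 reads over 11.8 kb (rank 128), and at 44912801 to 44916600, with 1398 reads over 3.8 kb. All 3 were overlapped by H3K27ac of the same line and none by H3K27me3.

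The other 18 H3K4me3 regions were sparse, at 26.7 to 122.5 reads per kb, where the median region of the list had 131 reads per kb. The densest of them, chromosome 16, 92498201 to 92503400, with 637 reads, crossed the edge of the Runx1 window. It was the only H3K4me3 region of the 3 windows that H3K27me3 overlapped, at 92498001 to 92501200 with 53 reads. The single Runx3 region, chromosome 4, 134758601 to 134761000, had 152 reads over 2.4 kb, or 63.3 reads per kb, rank 15080 of 24492 by reads. H3K27ac overlapped it over 1.2 kb with 37 reads. Sparse regions made up 7 of 8 at Runx1 and 10 of 12 at Runx2. Those inside the Runx1 window were 92608601 to 92611800 (219 reads), 92620201 to 92622400 (98), 92623401 to 92625600 (72), 92653201 to 92655800 (118), 92686201 to 92688000 (48) and 92904601 to 92905400 (36). Those at Runx2 began with 44595201 to 44596800 (120 reads), 44612001 to 44614000 (66), 44636801 to 44637400 (30), 44681201 to 44683800 (100) and 44684601 to 44686400 (65). They went on with 44691801 to 44693000 (39 reads), 44705801 to 44707200 (112), 44754401 to 44756000 (118), 44846601 to 44849200 (135) and 44903601 to 44905800 (98). Every one of the 21 overlapped H3K27ac of female WT, where 82.9% of the whole H3K4me3 list did, so the sparse regions sat at acetylated positions at all 3 loci.

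H3K4me1 was interrupted inside the 2 longest dense H3K4me3 regions in every line, over differing widths. Within the 8.2 kb at Runx1 the H3K4me1 lists left a gap of 1.2 kb in female WT (92696001 to 92697200), 4.6 kb in female KO, 5 kb in male WT and 4.2 kb in male KO. They covered 78.0%, 43.9%, 39.0% and 48.8% of it in that order. Within the 11.8 kb at Runx2 the longest gaps were 1.4 kb, 0.4 kb, 5 kb and 3.2 kb, and H3K4me1 covered 88.1%, 96.6%, 57.6% and 72.9%. It covered 94.7%, 57.9%, 42.1% and 89.5% of the 3.8 kb region. Over the 6122 densest H3K4me3 regions of the whole list the corresponding values were 74.4%, 80.0%, 70.1% and 85.6%. The dense Runx1 region was thus below these 6122 regions in both KO lines and in male WT, and slightly above them in female WT. The 11.8 kb Runx2 region was above them in both female lines and below them in both male lines. The 3.8 kb region was above them in female WT and male KO, and below them in the other lines.

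**Figure D1:**
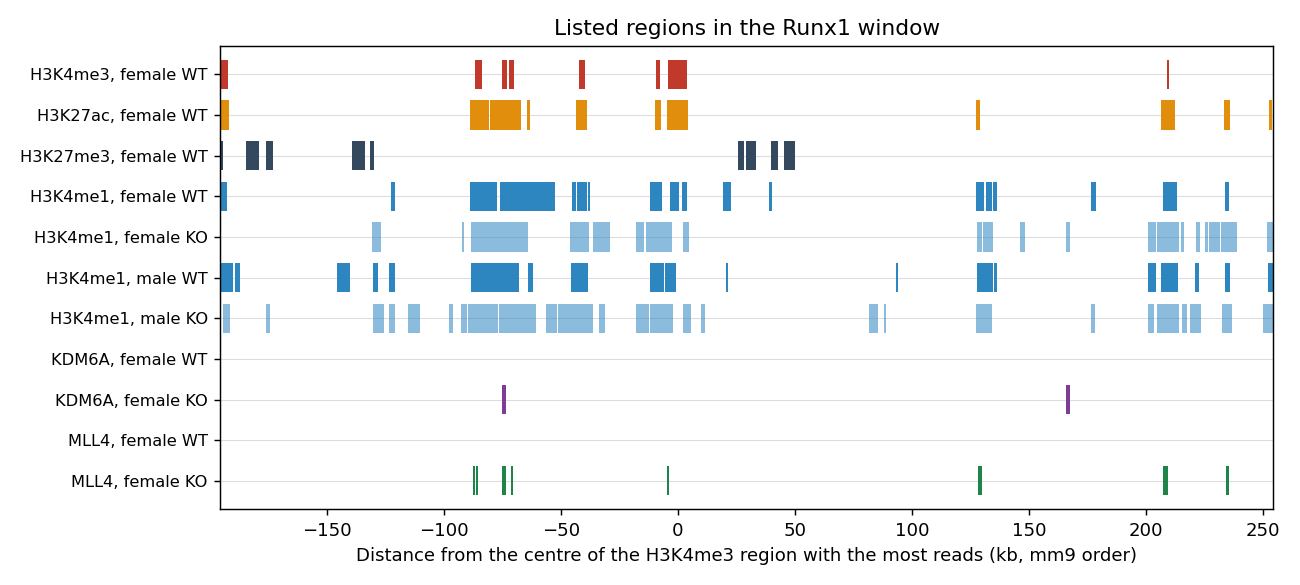
Regions of the 11 lists in the Runx1 window, 1 row per library; the x axis gives kb from the centre of the dense H3K4me3 region and bars are listed regions drawn to scale. H3K4me1 elements just left of the centre and near the right end reach further in both KO rows than in the WT rows. MLL4 appears in the KO row alone with 8 regions. In the middle stretch, right of the centre, 4 H3K27me3 regions lie where H3K4me1 is sparse.

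At Runx1, H3K4me1 covered more of the window in KO than in WT in both pairs of lines. Female WT covered 78.8 kb of the 450 kb and female KO 105.2 kb, a ratio of 1.34. Male WT covered 85 kb and male KO 133.2 kb, a ratio of 1.57. Of 3644 tiles of this length along the genome, 13.4% had more in KO in both pairs, 52.3% less in both, and 19.9% less in the female and more in the male pair. The ratio over the whole lists was 0.671 in the female and 0.759 in the male pair, and over chromosome 16 it was 0.701 and 0.846. Over 6 tiles on each side of the window it was 0.630 and 1.04. The share of listed reads falling on Runx1 went from 363 to 902 parts per 1000000 in the female pair and from 382 to 861 in the male pair. Over chromosome 16 it went from 32422 to 34799 and from 30043 to 34489 on the same scale. The KO lists hold fewer regions, which raises each region's share of listed reads.

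Part of that surplus lay at elements present in all 4 lines. Merging the 4 H3K4me1 lists gave 31 elements at Runx1, of which 6 were listed in every line and 4 of these 6 reached further in KO in both pairs; for all such elements of the genome that was so for 28.9%. The 6 together were covered over 65.6 kb in female WT, 77.6 kb in female KO, 58.2 kb in male WT and 86.8 kb in male KO. The element at 92644201 to 92666600 was covered over 6.4 kb in female WT and 15.4 kb in female KO, and over 7.2 kb and 17.6 kb in the male lines. Its neighbour at 92677601 to 92696000, which runs into the dense H3K4me3 region, went from 9 to 14.8 kb and from 10.4 to 15.6 kb. Toward the other end of the window, 92900201 to 92909800 went from 6 to 9.4 kb and from 7 to 9.4 kb, and 92927801 to 92934400 from 1.8 to 6.6 kb and from 2.4 to 4.2 kb. At these 4 elements the KO value was the higher one in each pair, with 1 library per value.

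The remaining pair of shared elements did not follow. The largest, 92606001 to 92643800, held the longest H3K4me1 regions of the locus. It was covered over 35.4 kb in female WT and 24.6 kb in female KO, but over 22.8 kb in male WT and 33.2 kb in male KO. Its region at 92607001 to 92631600 in female KO had 2149 reads at 87.4 reads per kb, rank 76 of 35041. In female WT the same stretch was split into 92606601 to 92618400 with 604 reads and 92619401 to 92643000 with 1185 reads, at 51.2 and 50.2 reads per kb. In male WT the region at 92607001 to 92627800 had 1938 reads, and in male KO those at 92606001 to 92618600 and 92619001 to 92634800 had 1364 and 1680. H3K27ac of female WT marked it at 92606801 to 92614600 with 830 reads and at 92615201 to 92628600 with 1105 reads, rank 743 of 29284. The last shared element, 92823001 to 92832000, was covered over 7 and 6.8 kb in the female and 8.4 and 6.8 kb in the male lines; it carried H3K27ac at 92822801 to 92824800 with 43 reads and no H3K4me3.

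Region by region, Runx1 had a larger share of KO H3K4me1 regions without a WT counterpart in the same pair than the lists as a whole. Of the 20 female KO regions, 12 had no WT counterpart, against 23.4% of the whole list and 25.4% on chromosome 16. In the male lines it was 13 of 26, against 25.4% of the list. Such a region could still overlap WT of the other pair, as 92896401 to 92900000 of female KO did in male WT. In the other direction 6 of 18 female WT regions lacked a KO counterpart, so 66.7% [41.0 to 86.7] were shared, and the whole list lacked one for 51.1%. For male WT it was 5 of 19, with 73.7% [48.8 to 90.9] shared, where the list lacked one for 42%. The intervals at the locus include the whole-list shares of 48.9% and 58.0%. Elements listed in both KO lines and neither WT line were 92602601 to 92605400 and 92910401 to 92913000, and the only element of both WT and neither KO line was 92715001 to 92718200. The former class, both KO and neither WT, made up 2 of 31 elements at Runx1. Over the 3 windows it was 2 of 76, or 2.63%, and 2.16% of all merged elements. None of these 3 Runx1 elements overlapped H3K27ac, H3K4me3 or H3K27me3 of female WT.

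A middle stretch of the Runx1 window carried H3K27me3 and little H3K4me1. Female KO listed no H3K4me1 from 92700201 to 92823200, over 123 kb, where female WT held 4.4 kb, male WT 2.2 kb and male KO 7.6 kb. In it lay 4 H3K27me3 regions of female WT covering 15 kb, between 92721001 and 92745600, at about 20 reads per kb each. All 9 H3K27me3 regions of the window covered 7.07% of it, against 2.93% of chromosome 16 and 10.5% of the whole span. The longest were 92511001 to 92516600 with 93 reads, 92556401 to 92561600 with 118 reads and 92740801 to 92745600 with 96 reads. By reads the 9 regions ranked from 16181 to 30346 of 30556, so all were in the lower part of the list.

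**Figure D2:**
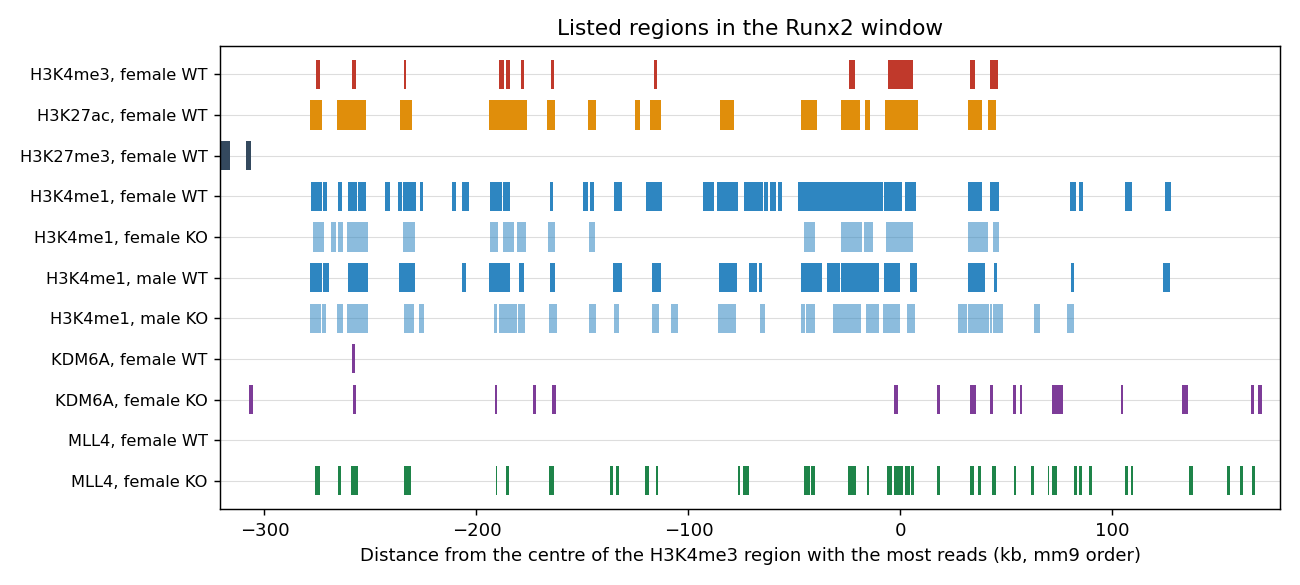
Regions of the 11 lists in the Runx2 window, drawn as for Runx1, with kb from the centre of the 11.8 kb H3K4me3 region on the x axis. The female KO row of H3K4me1 is empty over 98.8 kb left of the centre and over 132.6 kb at the right end, where the MLL4 and KDM6A rows of KO hold regions.

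At Runx2, KO covered less than WT in the female pair and slightly more in the male pair. H3K4me1 covered 167.4 kb of the 500 kb in female WT and 88.6 kb in female KO, a ratio of 0.529, below the 0.833 of chromosome 17 and the 0.849 of 6 tiles on each side. Male WT covered 122.4 kb and male KO 130 kb, a ratio of 1.06, with 0.935 for chromosome 17. A lower cover in female KO together with a higher one in male KO was found in 19.6% of 3383 tiles of this length. By regions, 15 of 33 in female WT were shared with KO (45.5% [28.1 to 63.6]), and 19 of 22 in male WT (86.4% [65.1 to 97.1]), for whole-list shares of 48.9% and 58.0%. The female value is near that of its list, and the lower bound of the male interval lies above that of its list. Over chromosome 17 the shares were 58.1% and 65.8%, and the intervals at the locus include both. Of the KO regions, 2 of 18 female (11.1%) and 7 of 28 male ones (25%) had no WT counterpart. Over the whole lists it was 23.4% and 25.4%, and over chromosome 17 it was 23.7% and 28.5%.

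Bases with H3K4me1 in female WT and not in female KO came to 96.4 kb, part of it in 2 long stretches without any H3K4me1 of female KO. The stretch at 44726601 to 44825400, 98.8 kb long, held 9 H3K4me1 regions over 46.4 kb in female WT, 6 over 24 kb in male WT and 7 over 22.2 kb in male KO. Its leading element, 44784001 to 44794200, was covered over 10.2 kb with 495 reads in female WT, over 8.6 kb with 494 reads in male WT and over 8.6 kb with 385 reads in male KO. H3K27ac of female WT marked that element at 44785601 to 44792400 with 207 reads, and 5 H3K27ac regions overlapped the stretch. Of the 5, 44723201 to 44727200 and 44823801 to 44831200 crossed its ends and were overlapped by H3K4me1 of female KO. At 44750801 to 44758400 H3K4me1 covered 7.6 kb in female WT, 4.6 kb in male WT and 3.4 kb in male KO, with H3K27ac (306 reads) and sparse H3K4me3 (118 reads). The other stretch, 44917401 to 45050000, 132.6 kb long, held 4 regions over 10.4 kb in female WT, 2 over 4.8 kb in male WT, 3 over 8.4 kb in male KO, and no H3K27ac. Of the Runx2 elements of female WT that female KO lacked, 8 were listed in female WT alone, 5 also in both male lines, 1 also in male KO, and 2 also in male WT. The latter, the elements of both WT lists and neither KO list, were 44663801 to 44667200 and 44994601 to 44998200. Over all 3 windows such elements were 3 of 76, or 3.95%, against 12% of merged elements genome-wide.

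Around the main H3K4me3 region of Runx2, H3K4me1 was present in all lines and broadest in female WT. A single female WT region ran from 44822201 to 44862400 with 2226 reads over 40.2 kb, rank 188 of 56076. Female KO listed 44842601 to 44852600 (570 reads over 10 kb) as its longest region of the locus, male WT 44842801 to 44860800 (1199 reads over 18 kb) and male KO 44838801 to 44852000 (1004 reads over 13.2 kb). The merged element from 44822201 to 44872200 was covered over 48.4 kb in female WT, 27.6 kb in female KO, 41.4 kb in male WT and 33 kb in male KO, so less in KO in both pairs. In all, 9 of 31 elements at Runx2 were listed in 4 lines, where 24% of merged elements genome-wide were. Of the 9, 4 reached further in KO in both pairs and 3 less far, against 28.9% and 27.6% of such elements genome-wide. All 9 carried H3K27ac and H3K4me3 of female WT.

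H3K27ac covered 21.9% of the Runx2 window, 4.85 times its share of the whole span, and 12.1% of the Runx1 window. Its leading Runx2 regions were 44863601 to 44879200 with 1742 reads, rank 276 of 29284, 44676801 to 44694400 with 1294, and 44605001 to 44618800, where 1094 reads were counted. The region at 44745401 to 44747800, with 73 reads, was the only acetylated one of the 3 windows that no H3K4me1 list overlapped. H3K27me3 was nearly absent from Runx2, with 2 regions (44550201 to 44554600 and 44562001 to 44564200) covering 1.32% of the window, against 12.9% of chromosome 17.

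At Runx1 and Runx2, acetylated H3K4me1 regions of female WT were shared with female KO more often than the others, as in the whole list. At Runx1, 10 of 18 female WT regions overlapped H3K27ac (55.6% [30.8 to 78.5]) and 9 of these were shared with KO, against 3 of the 8 others. At Runx2, 18 of 33 overlapped it (54.5% [36.4 to 71.9]) and 14 were shared, against 1 of the 15 others. At Runx3, 1 of 2 acetylated and 1 of 7 other regions were shared. The whole list gave 82.3% and 18.7%. Of all female WT regions, 47.4% overlapped H3K27ac, a share inside the intervals of Runx1 and Runx2. With H3K4me3, 7 of 8 regions at Runx1 and 11 of 12 at Runx2 were shared. With H3K27ac and no H3K4me3 it was 2 of 2 and 3 of 6. Over the whole list these classes gave 86.8% and 60.3%. Bases under H3K27ac at Runx1 were covered by H3K4me1 to 83.6% in female WT, 79.7% in female KO, 85.4% in male WT and 86.5% in male KO, and at Runx2 to 78.8%, 69.7%, 74.4% and 79.9%. The H3K27ac state of the other 3 lines is not known from these lists.

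**Figure D3:**
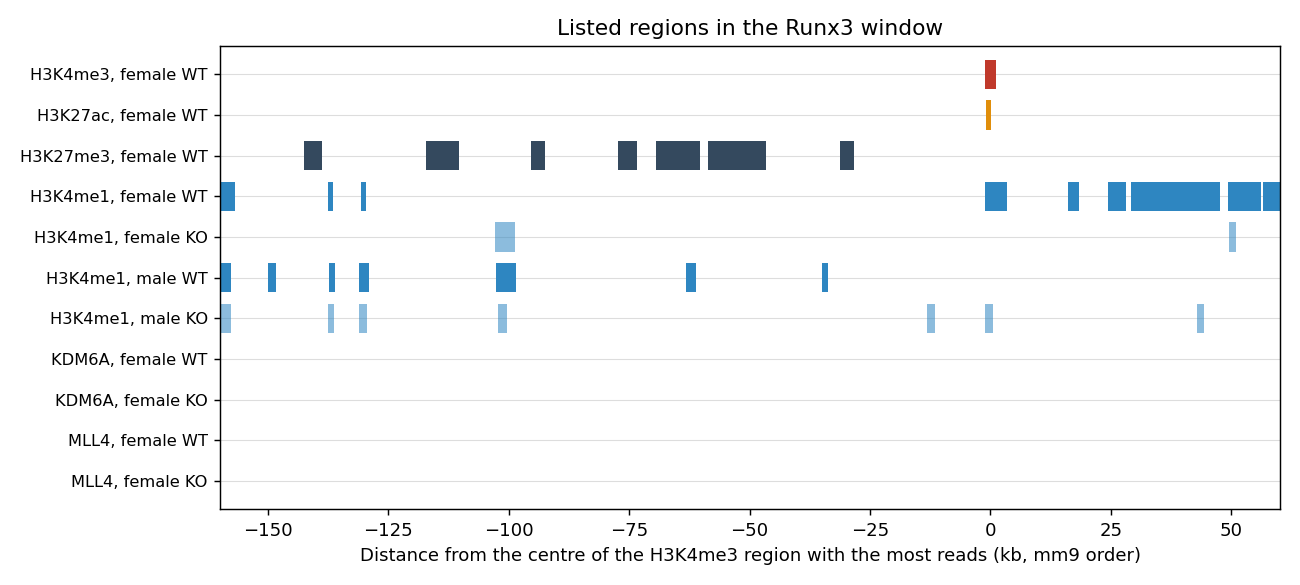
Regions of the 11 lists in the Runx3 window, drawn as for Runx1, with kb from the centre of its only H3K4me3 region on the x axis. H3K27me3 holds 7 regions over the left and middle part, H3K4me1 of female WT fills the right end, and the KDM6A and MLL4 rows are empty.

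In female WT, Runx3 had more of its window under H3K27me3 than Runx1 or Runx2, and less under H3K4me3 and H3K27ac. H3K4me3 covered 1.09% of it and H3K27ac 0.545%, against 2.88% and 4.51% of the whole span. Its 7 H3K27me3 regions covered 18.8% of the 220 kb, against 4.43% of chromosome 4 and 10.5% of the whole span. The longest were 134701201 to 134713200 with 253 reads over 12 kb, 134690401 to 134699600 with 247 over 9.2 kb and 134642601 to 134649600 with 149 over 7 kb. The first of these ranked 6425 of 30556 by reads. The Runx3 region with the fewest reads, 134664401 to 134667400 with 55, ranked 28960. No H3K4me1 region of female WT was listed from 134630201 to 134758600, over 128.4 kb, where 6 of the H3K27me3 regions covered 37.8 kb. Male WT alone listed H3K4me1 within an H3K27me3 region of female WT, at 134696601 to 134698600 with 102 reads.

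H3K4me1 at Runx3 was listed mainly in female WT, near the end of the window. Female WT covered 44.6 kb and female KO 5.6 kb, a ratio of 0.126, against 0.548 for chromosome 4 and 0.715 for 6 tiles on each side. Male WT covered 14.6 kb and male KO 11.8 kb, a ratio of 0.808, against 0.725 for chromosome 4. The male direction was not stable: with lists shortened to equal numbers of regions the ratio was 1.13, and with regions above the median by reads 0.344. KO covered less in both pairs in 47.8% of 5869 tiles of this length. The female WT regions were led by 134789001 to 134807400 with 853 reads over 18.4 kb, 134809201 to 134816000 with 286 reads and 134816401 to 134827800 with 557 reads, which runs past the window. Male WT listed nothing from 134726001 to the end of the window, over 94 kb, where female WT held 39.6 kb and male KO 5 kb. So this block was a difference between female WT and the other 3 lines, male WT included.

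By regions, 2 of 9 in female WT were shared with KO (22.2% [2.81 to 60.0]) and 4 of 7 in male WT (57.1% [18.4 to 90.1]). The whole-list shares were 48.9% and 58.0%, and those of chromosome 4 were 44.3% and 52.5%. The intervals at the locus include them. The region 134816401 to 134827800 meets its KO counterpart outside the window. H3K27ac overlapped 2 of the 9 female WT regions (22.2% [2.81 to 60.0]), with the 47.4% of the whole list inside the interval. Inside the window no base was covered by H3K4me1 in all 4 lines, whereas 44.4 kb were at Runx1 and 55.8 kb at Runx2. Female KO had 2 regions, 134657001 to 134661200 with 150 reads, which both male lines also listed, and 134809401 to 134810800 with 32 reads.

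**Figure D4:**
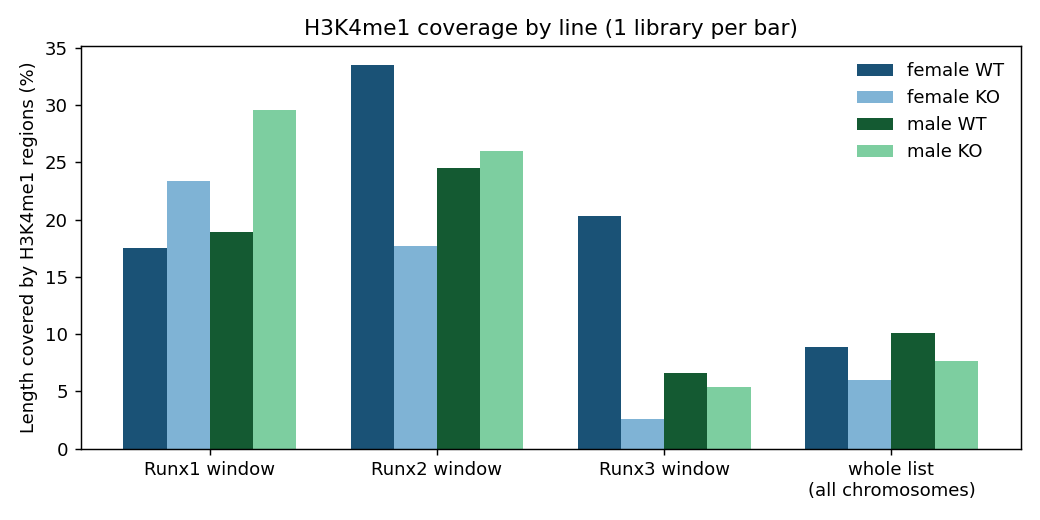
Percent of each window, and of the span of all lists, covered by H3K4me1 regions (y axis) in the 4 lines, 1 bar per library. KO bars exceed WT bars at Runx1 in both pairs (23.4% against 17.5%, and 29.6% against 18.9%), the pairs differ at Runx2, and female WT stands highest at Runx3 with 20.3%.

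KDM6A and MLL4 regions were found at Runx1 and Runx2 in female KO and, with 1 exception, not in female WT. KDM6A had 2 regions at Runx1 and 17 at Runx2 in KO, and 1 region at Runx2 in WT. These regions are named by the library title, and whether those of the line labelled KO mark KDM6A binding was not tested. The density of chromosome 16 would put 0.437 KDM6A regions of KO in the Runx1 window. On that chromosome 23 of 218 tiles reached its count, the window counted. MLL4 had 8 at Runx1 and 38 at Runx2 in KO and none in WT. The KO lists are the longer ones, with 13152 MLL4 regions against 2130 in WT and 5961 KDM6A regions against 2847. Cut to the length of the WT lists by reads, they left 13 MLL4 and 10 KDM6A regions at the loci, against 0 and 1 in WT. Runx3 had no region of either protein in either line. At the density of chromosome 4 its window would hold 0.399 MLL4 and 0.0954 KDM6A regions of KO, and 0.110 and 0.121 of WT. For WT, chromosome density gave 0.214 MLL4 and 0.285 KDM6A regions at Runx1, and 0.255 and 0.363 at Runx2. All of these expected counts were below 1. The absence of a WT counterpart is common to the lists: it held for all but 1 of the 19 KDM6A regions of KO here and 95.6% of that list, and for all 46 MLL4 regions here and 95.2% of that list.

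The single KDM6A region of WT, chromosome 17, 44612201 to 44613600, with 49 reads, was also listed in KO at 44612601 to 44613800 with 40 reads. It lay inside an MLL4 region of KO, 44611801 to 44614800, with 120 reads, and was covered by H3K4me1 in all 4 lines, by H3K27ac and by sparse H3K4me3. At Runx1 a KDM6A region of KO and an MLL4 region of KO shared both borders, 92620201 to 92622200, with 55 and 82 reads. That interval lies inside the large H3K4me1 and H3K27ac block described above. It also lies wholly inside a sparse H3K4me3 region, 92620201 to 92622400. The other KDM6A region at Runx1, 92861601 to 92863200 with 37 reads, overlapped H3K4me1 of female KO and no mark of female WT.

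All 8 MLL4 regions at Runx1 overlapped H3K27ac of female WT and H3K4me1 of female KO, and 6 overlapped H3K4me3. On chromosome 16 as a whole 71.7% of MLL4 regions of KO overlapped H3K27ac. Behind 92620201 to 92622200, the leading ones were 92903001 to 92905200 with 76 reads and 92824001 to 92825600 with 49 reads. At the density of chromosome 16 a window of this length would hold 1.16 regions, and the 6 tiles on each side held 0 to 4.

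At Runx2, MLL4 of KO was led by 44636601 to 44640000 with 137 reads, 44845801 to 44849800 with 136 reads and, inside the main H3K4me3 region, 44867801 to 44871800 with 135 reads. Of the 38 regions, 26 overlapped H3K4me1 of female WT, 18 that of female KO, 19 H3K27ac and 13 H3K4me3, and 12 overlapped none of the 4 histone marks of female WT. The unmarked share was 31.6%, against 50.2% on chromosome 17 and 34.8% over the whole list. The share with H3K4me1 of female WT was 68.4%, against 44.5% and 58.5%, and that with H3K27ac 50%, against 36.6% and 51.3%. The 98.8 kb stretch without H3K4me1 of female KO was overlapped by 7 MLL4 regions of the same line and no KDM6A region. Of the 7, 44825201 to 44828200 only reached its edge and lay over 2800 bp under H3K4me1 of female KO. The 132.6 kb stretch held 13 MLL4 and 8 KDM6A regions. The leading KDM6A region of KO, 44942401 to 44947200 with 150 reads over 4.8 kb, rank 25 of 5961, lay in the latter stretch and overlapped no listed histone region of any line. Next came 45003401 to 45006200 with 91 reads, likewise without any histone mark, and 44867601 to 44869600 and 44903601 to 44906200 with 87 reads each, both in H3K4me3. In all, 10 of the 17 KDM6A regions overlapped none of the 4 marks of female WT (58.8%), near the 54.0% of chromosome 17 and the 46.8% of the whole list.

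The surplus at Runx2 was shared by its surroundings. Chromosome 17 held 15.4 MLL4 and 6.65 KDM6A regions of KO per Mb, against 5.12 and 2.32 over all chromosomes. Without chromosomes 1, 6, 15, 17 and 19, a set chosen with the densities of these lists already known, the values were 2.88 and 1.11. In WT chromosome 17 held 0.510 and 0.727 per Mb. The window held 76 and 34 per Mb in KO. The 6 tiles of 500 kb on each side held 0 to 23 MLL4 regions, median 11.5, and 3 to 14 KDM6A regions, median 8, where the median tile of the chromosome held 4 and 1. On chromosome 17, 2 of 191 tiles reached the window's 38 MLL4 regions and 4 of 191 its 17 KDM6A regions, the window counted. The part of this regional surplus in the Runx2 values was not tested.

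**Figure D5:**
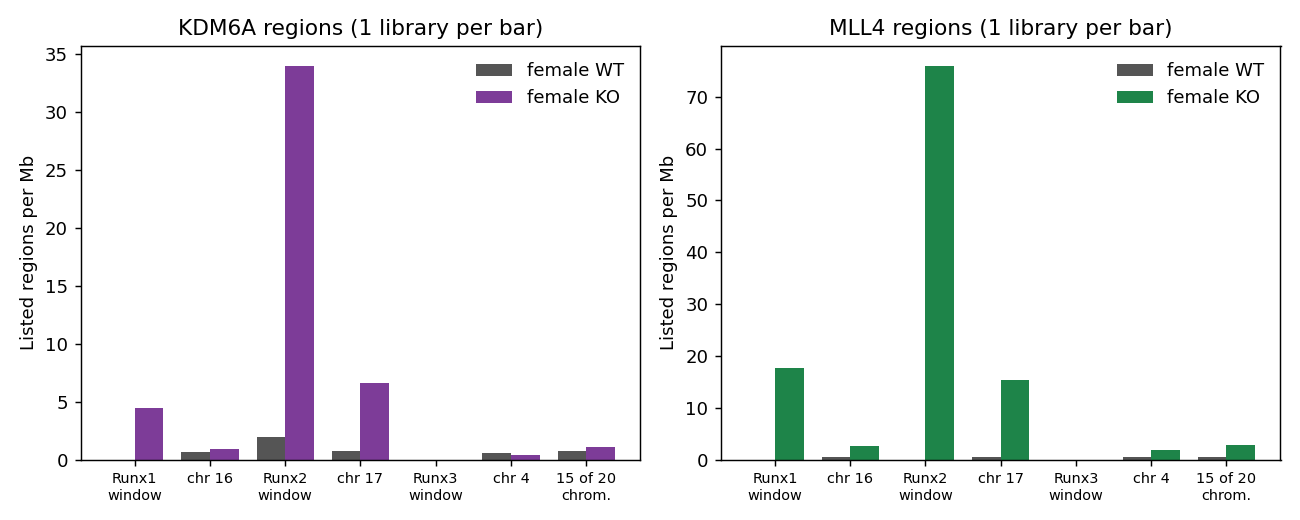
Listed KDM6A (left) and MLL4 (right) regions per Mb in female WT and KO, 1 library per bar, for each window, its chromosome and the 15 chromosomes other than 1, 6, 15, 17 and 19. The KO bars of the Runx2 window (34 and 76) stand above those of chromosome 17 (6.65 and 15.4), which stand above those of the 15 chromosomes (1.11 and 2.88).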

How the data were processed

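The submitters' processing notes name Bowtie 1.1.2, SICER 1 and mm9, with no role stated. Each deposited list holds coordinates and, per region, an integer that was taken here as the count of reads; that rests on the values, since no header names the column. Borders lay on steps of 200 bp. The control, threshold and joining of neighbours behind each list are not given in the sources used here, and the smallest gap between regions was 400 bp, 600 bp for H3K27ac and 800 bp for H3K27me3. Regions were called per library; an unlisted position may still hold signal, and counts were compared as ranks within a list or as shares of listed reads.

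Starts count from 0 in the lists and are printed from 1. Overlap meant at least 1 bp. Lengths were cut at the window edges, elements were unions of the 4 H3K4me1 lists, and the whole span ran between the outermost regions of each chromosome (2569 Mb). Dense H3K4me3 meant reads per kb above the upper quartile of the list. No group had a replicate, so nothing was tested between lines. Named regions were all H3K4me3 and the leading KDM6A and MLL4 regions, regions chosen from the 3 longest of each other list per window, and elements of both WT or both KO lines; gaps, flanks and single positions beyond these were chosen after their values were seen. The genes and windows were chosen with earlier results of these data known. Alternatives were 50% overlap, bases, regions above the median of each list by reads, lists shortened to equal numbers and merging within 5 kb. Promoter sequences came from RefSeq. Python 3.11.15, numpy 2.4.6, pandas 2.3.3, scipy 1.17.1 and matplotlib 3.10.9 were used, and overlaps were tested on simulated data.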

Additional observations from a re-analysis of the deposited data

Results flagged for a closer look

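The H3K4me1 cover of the Runx2 window was lower in KO in the female pair and slightly higher in the male pair. KO covered 0.529 times the length of WT in the female lines and 1.06 times in the male lines. The male value was 1.01 with regions above the median by reads and 1.02 with merging within 5 kb. Each value rests on 1 library against 1, and the difference between the pairs was not tested.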

How the results depend on the processing

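No paired analysis was possible because each group holds 1 library. Among the shares and counts of the design, 42 of the alternatives stayed within the interval of the main value or within 1.5 times of a main count, and 9 did not. With regions above the median of each list by reads, 87.5% of female WT H3K4me1 regions at Runx1 were shared with KO, and KDM6A and MLL4 of KO had 10 and 29 regions at the 3 loci. With lists shortened to equal numbers, 92.9% of male WT regions at Runx1 were shared, and KDM6A and MLL4 of KO had 10 and 13 regions, against 1 and 0 in WT. Fewer regions enter both settings by construction. Merging within 5 kb left 26 MLL4 regions. At 50% overlap, 0 of 9 female WT regions at Runx3 were shared with KO, and 0 of 9 overlapped H3K27ac. For the covered length, alternatives added after seeing the data turned the male ratio at Runx3 from 0.808 to 1.13 with lists shortened to equal numbers, and to 0.344 with regions above the median; the cause was not tested. The ratios above 1 at Runx1 stayed above 1 in both pairs under each of the 3 settings tried. Unknown depth limits every absence to absence from a list.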
